A study of Mus musculus with 6 samples.

Results

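Transcripts of 10 genes that control the turnover of beta-catenin were examined in mouse embryonic stem cells with and without E-cadherin. They were the scaffolds Apc and Axin1, the kinases Gsk3a, Gsk3b and Csnk1a1, the ubiquitin ligase adaptor Btrc, the tankyrase Tnks and the Dishevelled genes Dvl1, Dvl2 and Dvl3. The genes were picked by symbol, and each matched 1 row of the count table, so all 10 were found among 55401 listed genes. All 10 passed the filter on low counts, which left 17325 genes for testing. The cells belonged to V6.5, a hybrid mouse embryonic stem cell line. A total of 3 libraries came from WT cells and 3 from cells of genotype Cdh1-/-, in which Cdh1, the gene of E-cadherin, was disrupted. The labels give replicate letters A, B and C, no treatment, and no word on how many clones or separate cultures stood behind a genotype. P-values therefore measure only the spread between these libraries, which may be technical.

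In cells without a Wnt signal, Axin and APC hold beta-catenin next to casein kinase 1 alpha and GSK3, which phosphorylate it in turn. The protein encoded by Btrc, beta-TrCP, recognises the phosphorylated form and passes it to the proteasome. Tankyrase marks Axin for destruction, and Dishevelled carries the signal from Frizzled receptors to the complex and disables it. In embryonic stem cells, chemical inhibition of GSK3 is widely used to hold the undifferentiated state. E-cadherin binds beta-catenin at the membrane, and the series concerns its effect on the stability and activity of beta-catenin. Transcript counts say nothing of the amount or the phosphorylation of these proteins.

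Paralogs can share reads, so the coding sequences of related genes were compared in GENCODE M21 (GRCm38), with the longest coding transcript of each gene. The longest identical run of bases in each pair is printed 5′ to 3′, because a read that covers more than such a run within these coding sequences can be told apart between the paralogs.
Gsk3a and Gsk3b: agtgcaaagcagctggt
Dvl1 and Dvl2: gatgtggtggactggctgtac
Dvl1 and Dvl3: aacatcatcaccgtcactctcaacatgga
Dvl2 and Dvl3: gattttggggtggtgaaggaagagatctc
Axin1 and Axin2: catgtttgaccaggcacagac
Tnks and Tnks2: tatgaatttaaaggccattc
Btrc and Fbxw11: atcaagatctgggataaaagca
These runs were between 17 and 29 bases long. The Gsk3a and Gsk3b coding sequences, of 1470 and 1299 bases, were 70.5% identical at aligned positions and shared no identical run above 17 bases. Their shared run crosses the junction of exons 5 and 6 in both genes, at chr7:25231727-25231835 on the minus strand in Gsk3a and chr16:38187940-38191542 on the plus strand in Gsk3b. The Dvl1 and Dvl3 run crosses the junction of exons 7 and 8 in both, at chr4:155854773-155854886 and chr16:20524561-20525639. The Dvl1 and Dvl2 run lies inside exon 13 of each gene, at chr4:155856367-155856387 and chr11:70008286-70008306. The read length is not given in the sources used here.

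When knockout was tested against WT with the quasi-likelihood method of edgeR, 0 of the 10 genes were called at an adjusted p under 0.05. The background was 2307 of 17325 tested genes, or 13.3%, and 19.1% of the 5181 genes with a mean count at least as high as that of Dvl3, the least counted member at 865 counts. At an unadjusted p under 0.05 there were 2 members, Tnks and Dvl2, against 26.7% of all tested genes. DESeq2 and limma-voom also called 0 members. Across the members, log2 fold changes lay between -0.23 and 0.23, with a median of -0.02 against -0.01 over all tested genes. Their median absolute log2 fold change was 0.12, against 0.23 over all tested genes and 0.14 over the 5181 genes of comparable or higher counts. Each 95% interval covers its own gene only and rests on the spread between these libraries. No interval reached above 1.39-fold or below 0.755-fold, and 8 of the 10 included no change.

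**Figure D1:**
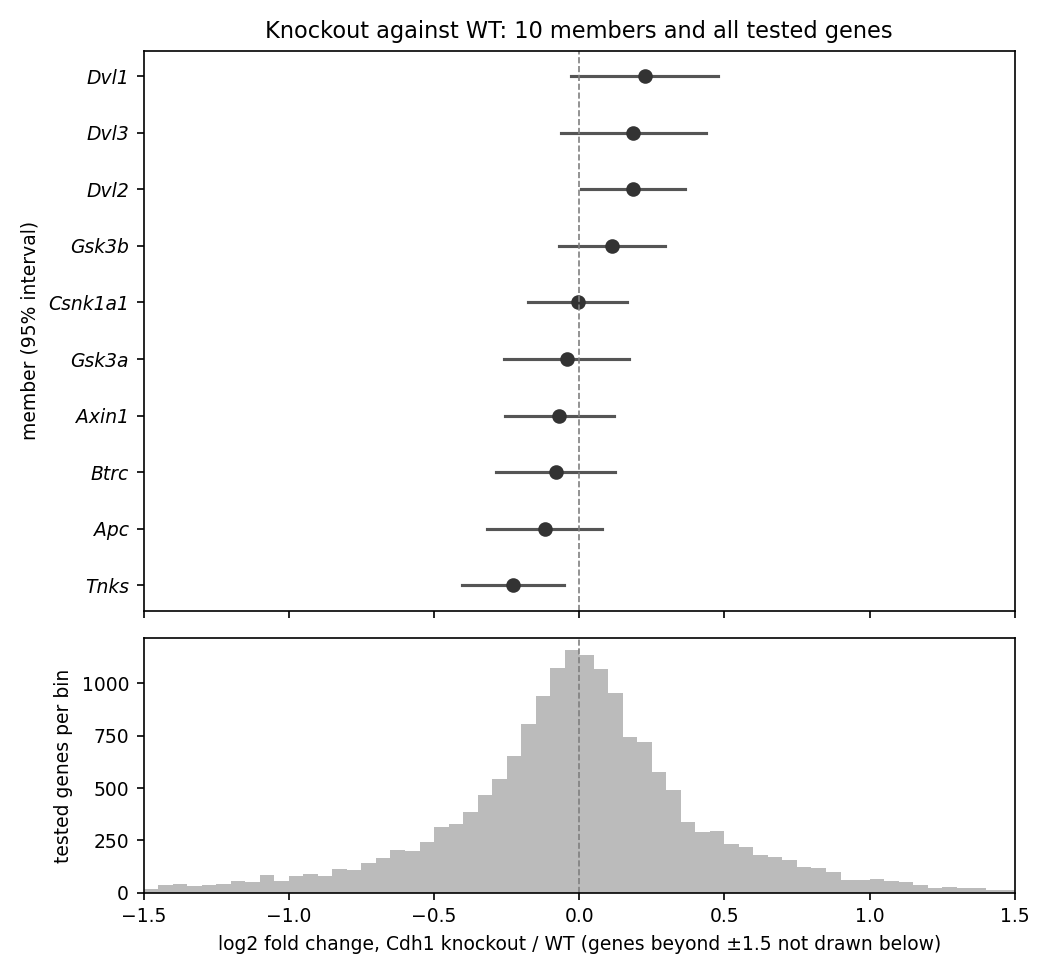
Log2 fold change (knockout over WT) of each member with its 95% interval, above the number of the 17325 tested genes in each bin of log2 fold change, with genes beyond the axis not drawn. The members lie between -0.23 and 0.23, and the intervals of Tnks and Dvl2 do not include 0, although neither gene passed after adjustment.

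The libraries held between 18020719 and 23381942 counts, and a member was counted between 768 times (Dvl3 in WT replicate A) and 13926 times (Csnk1a1 in knockout replicate B). Cdh1 itself fell to 30.9% of its WT level (log2 fold change -1.70, edgeR adjusted p 2.9e-08), with 537 to 571 CPM in WT and 166 to 183 CPM in knockout cells. CPM is the count scaled to a common library size after TMM normalisation. In such bulk libraries, fewer cells that express a gene and less of its RNA per cell cannot be told apart. All 10 embryonic stem cell markers were detected, with a summed level of 5127 to 5534 CPM in WT and 6000 to 7409 CPM in knockout cells. Of these markers 3 were called, Klf4, Tfcp2l1 and Tdgf1, all higher, where 13.3% of all tested genes were called. Pou5f1, Sox2, Nanog and Esrrb were not called. The 10 fibroblast markers, a check for feeder cells, summed to 72.9 to 97.3 CPM in WT and 51.6 to 83.1 CPM in knockout cells. Fbln1 was the highest, at 52.7 CPM in WT and 38.1 CPM in knockout cells, and was not called. Col1a1 fell from 12.5 to 4.49 CPM (log2 fold change -1.48, edgeR adjusted p 9.1e-04) and was the only fibroblast marker called. Thy1 had 8.20 and 7.31 CPM, and Pdgfrb 9.53 and 10.1 CPM, in WT and knockout cells. Dcn, Lum, Postn and Twist2 were each under 1 CPM in every library. Whether these levels had a part in the members' values was not tested. Knockout replicate A stood apart on the second principal component, which held 20.9% of the variance, at 43.5 against -11.7 and -25.8 for the other knockout libraries. None of the members lies on chromosome 1 or 14, whose median log2 fold changes were -0.33 and 0.53.

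**Figure D2:**
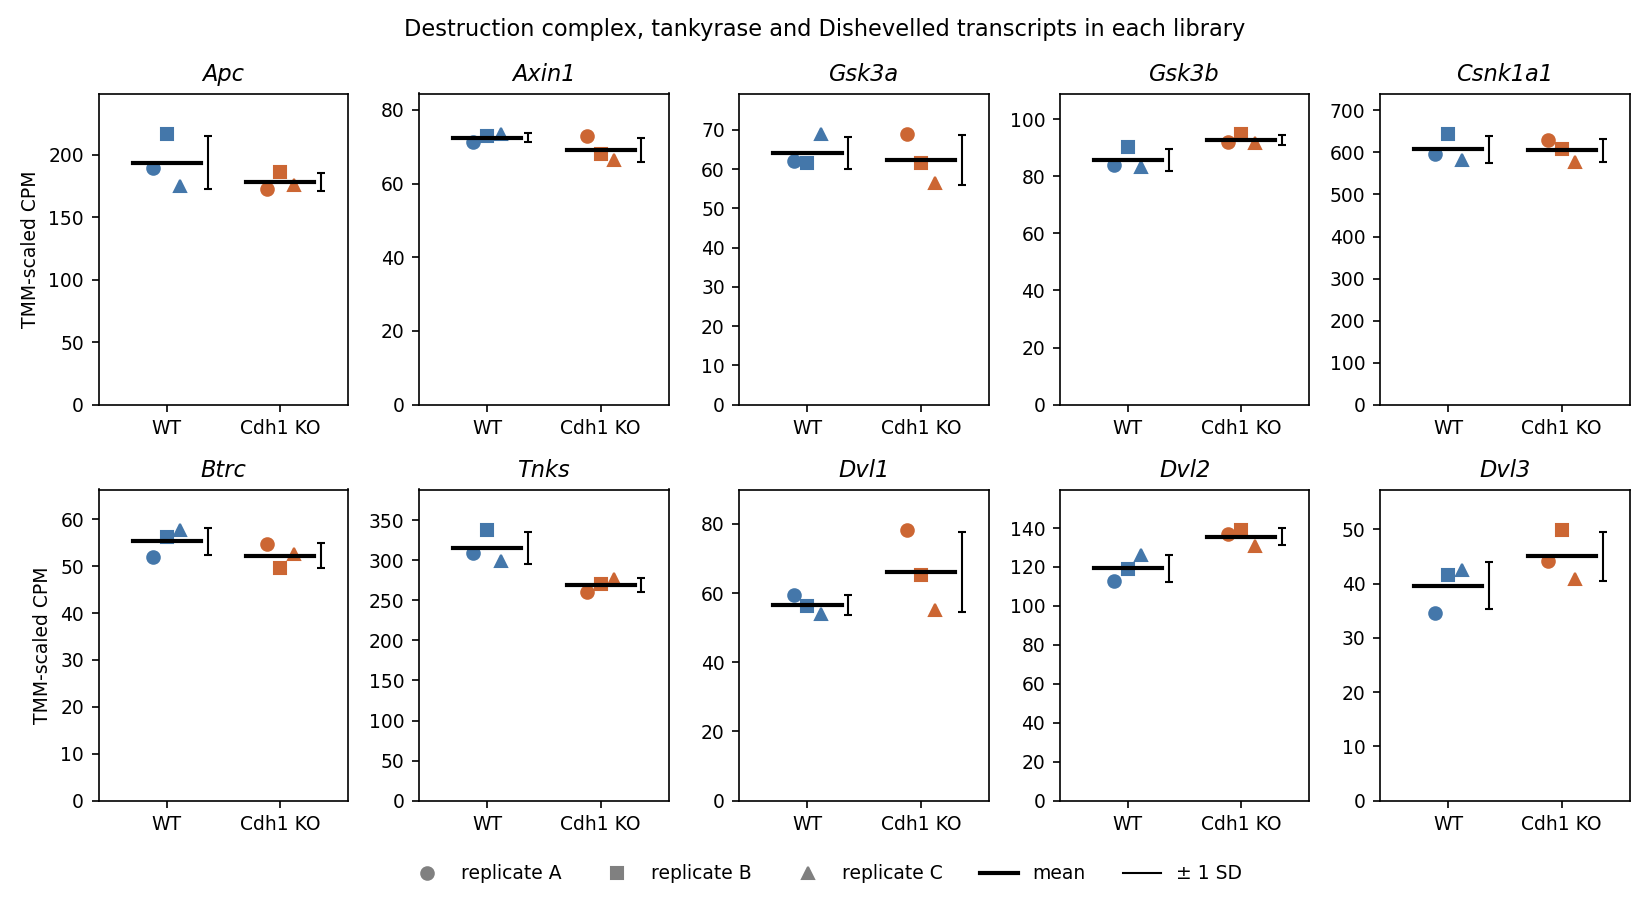
TMM-scaled CPM of each member in every library, with replicate letters as symbols, the mean as a thick line and 1 SD as a thin bar. The genotypes are separated for Gsk3b, Tnks and Dvl2 and overlap for the other 7 genes. They are separated for 30.7% of all tested genes and 37.5% of those with comparable or higher counts.

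The level of each gene was compared between genes only per kb of exon. The exon length was the deposited one, which joins all annotated exons of a gene and may exceed that of the transcripts expressed. Csnk1a1, the gene of the priming kinase, was the most abundant in WT at 94.7 ± 5.04 CPM per kb (SD, n = 3). Its mean over the libraries of both genotypes stood at percentile 96.5 of all tested genes. Tnks followed at 34.4 ± 2.17 CPM per kb, then Gsk3a at 28.4 ± 1.81, Dvl2 at 23.6 ± 1.35, Axin1 at 19.2 ± 0.312 and Dvl1 at 16.8 ± 0.828 CPM per kb. Apc stood at 14.7 ± 1.61 CPM per kb and Gsk3b at 10.3 ± 0.459 CPM per kb. Dvl3 at 9.32 ± 1.02 and Btrc at 9.19 ± 0.493 CPM per kb had the lowest levels. The WT libraries of neighbours in this order did not overlap down to Dvl1, but those of Dvl1 and Apc, of Gsk3b and Dvl3, and of Dvl3 and Btrc did. In the knockout the order was the same except that Dvl1, at 19.7 ± 3.45 CPM per kb, stood above Axin1, at 18.3 ± 0.894 CPM per kb. Ctnnb1, which encodes beta-catenin, was at 224 CPM per kb in WT and 236 CPM per kb in the knockout, above every member. Unscaled for length, Ctnnb1 had 811 ± 54.4 CPM and 853 ± 68.2 CPM in these groups (SD, n = 3 each).

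The scaffolds were examined first. Apc (ENSMUSG00000005871.15, chromosome 18, 34220984 to 34322552, plus strand) carries binding sites for beta-catenin and Axin. Its levels in replicates A, B and C, the order kept for every gene, were 190, 217 and 175 CPM for WT and 173, 186 and 176 CPM for knockout cells. WT replicate B was the highest library and the genotypes overlapped. The log2 fold change was -0.12 (SE 0.09, edgeR adjusted p 0.457), with a 95% interval of 0.803-fold to 1.06-fold. The log2 fold change was -0.03 once WT replicate B was left out and -0.18 once WT replicate C was.

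Axin1 (ENSMUSG00000024182.16, chromosome 17, 26138688 to 26195811, plus strand) encodes the scaffold that brings the kinases and beta-catenin together. It had 71.2, 72.9 and 73.4 CPM in the WT libraries and 72.8, 68.1 and 66.3 CPM in the knockout libraries. Its WT libraries agreed more closely than those of any other member, with a coefficient of variation of 1.62%. Knockout replicate A lay inside the WT range and knockout replicates B and C lay below it. This gave a log2 fold change of -0.07 (SE 0.09, edgeR adjusted p 0.677), and the interval ran from 0.837-fold to 1.09-fold.

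Among the kinases, Csnk1a1 and Gsk3a had the smallest differences of the 10 genes. Csnk1a1 (ENSMUSG00000024576.14, chromosome 18, 61555274 to 61590061, plus strand) encodes casein kinase 1 alpha, which phosphorylates beta-catenin before GSK3 does. It stood at 607 ± 32.3 CPM in WT and 605 ± 27.0 CPM in knockout cells (SD, n = 3 each). Its libraries ranged from 582 to 644 CPM in WT and from 577 to 630 CPM in knockout cells. This was a log2 fold change of -0.01 with an interval of 0.884-fold to 1.12-fold (edgeR adjusted p 0.978).

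Gsk3a and Gsk3b encode closely related forms of glycogen synthase kinase 3. Gsk3a (ENSMUSG00000057177.12, chromosome 7, 25228258 to 25237851, minus strand) had 62.0, 61.6 and 68.9 CPM in WT and 68.9, 61.5 and 56.5 CPM in knockout cells. The knockout libraries spanned the whole WT range, and the log2 fold change was -0.04 (edgeR adjusted p 0.839, interval 0.836-fold to 1.13-fold). Of the exon bases of Gsk3a, 19.3% lie under 9130221H12Rik on the opposite strand, a gene of 2.75 CPM in WT and 3.50 CPM in knockout cells that was not called. Gsk3b (ENSMUSG00000022812.14, chromosome 16, 38089001 to 38246084, plus strand) had 83.9, 90.2 and 83.3 CPM in WT and 91.9, 94.8 and 91.8 CPM in knockout cells. All knockout libraries of Gsk3b lay above all WT libraries, a separation that 30.7% of all tested genes and 37.5% of genes with comparable or higher counts showed. The log2 fold change of Gsk3b was 0.11 (SE 0.08, edgeR adjusted p 0.438), with an interval of 0.954-fold to 1.23-fold.

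The promoters of both GSK3 genes, the 250 bases before the RefSeq start (GRCm38.p6), are shown because the study concerns the transcriptional activity of beta-catenin. They were searched on both strands for CTTTGAT and CTTTGAA, cores of the sequence that TCF and LEF factors bind, and capitals mark a match.
Gsk3a, chr7:25237852-25238101, minus strand: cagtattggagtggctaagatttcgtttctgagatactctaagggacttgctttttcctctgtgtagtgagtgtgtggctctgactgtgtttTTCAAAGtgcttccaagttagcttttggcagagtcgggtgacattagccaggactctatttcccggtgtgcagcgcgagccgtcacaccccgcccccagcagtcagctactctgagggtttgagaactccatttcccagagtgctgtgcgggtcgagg
Gsk3b, chr16:38088751-38089000, plus strand: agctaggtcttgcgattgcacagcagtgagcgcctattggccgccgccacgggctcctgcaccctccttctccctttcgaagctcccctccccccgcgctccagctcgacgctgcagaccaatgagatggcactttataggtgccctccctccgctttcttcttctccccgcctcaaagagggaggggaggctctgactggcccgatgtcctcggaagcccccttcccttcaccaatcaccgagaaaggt
Gsk3a held 1 match and Gsk3b held 0. A promoter was found for 5 of the 10 members, and the 3 Dishevelled promoters also held 0 matches. Over 32851 promoters of the same length, 7.48% held at least 1 match, and a match is a description of letters only.

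Btrc and Tnks act after and around the phosphorylation step. Btrc (ENSMUSG00000025217.15, chromosome 19, 45363751 to 45530013, plus strand) had 51.9, 56.1 and 57.7 CPM in WT and 54.8, 49.5 and 52.5 CPM in knockout cells. The genotypes overlapped, and the log2 fold change was -0.08 (SE 0.10, edgeR adjusted p 0.652, interval 0.821-fold to 1.09-fold).

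Tnks (ENSMUSG00000031529.5, chromosome 8, 34826460 to 34965690, minus strand) had the largest difference of the 10 genes. Its level was 308, 338 and 299.6 CPM in the WT libraries and 260, 270 and 277 CPM in the knockout libraries. Every knockout library lay below every WT library, and the genotypes were separated in either direction for 30.7% of all tested genes. The mean was 315 ± 19.9 CPM in WT and 269 ± 8.61 CPM in knockout cells (SD, n = 3 each), a log2 fold change of -0.23 with an SE of 0.08. Its unadjusted p was 0.0142 and its edgeR adjusted p was 0.0838, with an interval of 0.755-fold to 0.964-fold. The call depended on the scaling of the libraries. With upper quartile factors the edgeR adjusted p was 0.0380, with library totals it was 0.0387, and it did not pass under the other 14 alternatives. Without WT replicate B, the highest library, the log2 fold change was -0.18 and the adjusted p 0.276. Of the exon bases of Tnks, 6.93% lie under Gm9939 on the opposite strand, which was at 0.127 CPM in WT and 0.0336 CPM in knockout cells.

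The Dishevelled genes, which pass the signal from the receptors to the complex, all had positive log2 fold changes, and none passed the threshold. Dvl2 (ENSMUSG00000020888.16, chromosome 11, 70000595 to 70012301, plus strand) had 113, 119 and 126 CPM in WT and 137, 139 and 131 CPM in knockout cells. All knockout libraries lay above all WT libraries, where 30.7% of all tested genes were separated in either direction. The log2 fold change was 0.18 (SE 0.08, unadjusted p 0.0446, edgeR adjusted p 0.174), with a 95% interval of 0.01 to 0.36 on the log2 scale. Of the exon bases of Dvl2, 19.3% lie under Acadvl on the opposite strand, a gene with 12.8 to 17.1 CPM in WT and 14.4 to 18.6 CPM in knockout cells that was not called.

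Dvl1 (ENSMUSG00000029071.16, chromosome 4, 155847402 to 155859303, plus strand) varied most between knockout libraries. It had 59.5, 56.3 and 53.9 CPM in WT and 78.2, 65.2 and 55.1 CPM in knockout replicates A, B and C. Knockout replicate C fell inside the WT range, and the coefficient of variation was 17.5% in the knockout against 4.92% in WT. The log2 fold change of 0.23 (SE 0.12, edgeR adjusted p 0.244, interval 0.981-fold to 1.39-fold) was 0.09 without knockout replicate A and 0.35 without knockout replicate C, with adjusted p values of 0.643 and 0.0840. Dvl3 (ENSMUSG00000003233.12, chromosome 16, 20516982 to 20534010, plus strand) had 34.6, 41.6 and 42.5 CPM in WT and 44.2, 49.8 and 40.9 CPM in knockout cells. Its genotypes overlapped, and the log2 fold change was 0.19 (SE 0.12, edgeR adjusted p 0.339, interval 0.958-fold to 1.35-fold). Without WT replicate A, the lowest library, the log2 fold change of Dvl3 was 0.10.

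Summed per kb, the Dishevelled transcripts stood at 48.1, 50.1 and 51.0 CPM per kb in WT and at 60.8, 58.6 and 51.9 CPM per kb in the knockout. The makeup of the family was alike in the genotypes. Dvl2 held 47.4 ± 1.38% of the sum in WT and 47.1 ± 2.65% in the knockout (SD, n = 3 each). Dvl1 held 33.9% (31.5 to 36.8% over the libraries) in WT and 34.4% (31.6 to 38.3%) in the knockout, and Dvl3 held 18.7 ± 1.54% and 18.6 ± 1.45%. These differences in share were smaller than the spread between replicates.

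**Figure D3:**
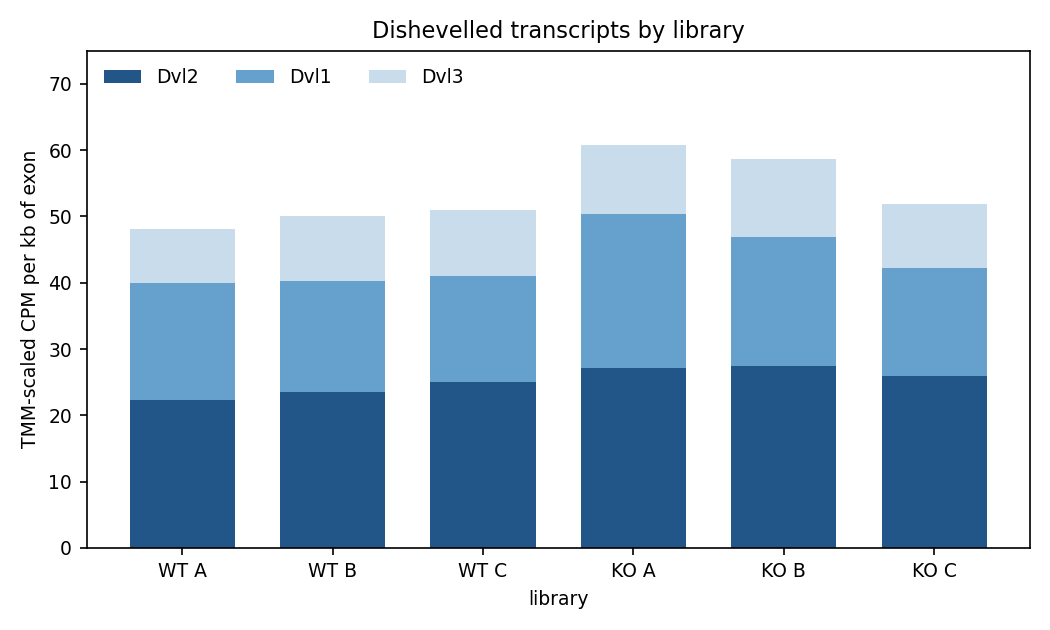
Stacked TMM-scaled CPM per kb of exon of Dvl2, Dvl1 and Dvl3 in each library. The knockout sums run from 51.9 to 60.8 CPM per kb and the WT sums from 48.1 to 51.0 CPM per kb, while the shares of the 3 genes stay alike.

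Ratios between paralogs or partners within a library do not depend on library scaling and were compared for 7 pairs. The exact permutation test of 3 libraries against 3 is two-sided here and cannot go below a p of 0.1. The ratio of Tnks to Tnks2, its paralog with the same activity, was 0.326, 0.322 and 0.326 per exon length in WT and 0.284, 0.308 and 0.301 in the knockout. All knockout libraries were lower, by 0.13 on the log2 scale (exact permutation p = 0.1, adjusted over the pairs 0.35). The ratio of Btrc to Fbxw11, the other beta-TrCP gene, was 0.431, 0.455 and 0.418 in WT and 0.415, 0.382 and 0.368 in the knockout. All knockout libraries were again lower, by 0.16 on the log2 scale (exact permutation p = 0.1, adjusted 0.35).

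The other 5 pairs overlapped between the genotypes. Gsk3a outnumbered Gsk3b per exon length by 2.77 ± 0.269 in WT and 2.48 ± 0.260 in the knockout (exact permutation p = 0.3, adjusted 0.7). This ratio rests on exon lengths of 2260 bases for Gsk3a and 8342 bases for Gsk3b. Unscaled for length, their WT means were 64.2 and 85.8 CPM. The ratio of Dvl1 to Dvl2 was 0.717 ± 0.0762 in WT and 0.734 ± 0.115 in the knockout, and that of Dvl3 to Dvl2 was 0.394 ± 0.0260 and 0.395 ± 0.0289. The ratio of Apc to Axin1 was 0.768 ± 0.0853 in WT and 0.743 ± 0.0547 in the knockout. Axin1 outnumbered Axin2, the paralog that Wnt signalling itself induces, by 6.04, 6.17 and 5.25 in WT and by 11.1, 5.94 and 5.61 in the knockout. Knockout replicate A stood alone here, with Axin2 at 7.41 CPM against 12.9 to 15.8 CPM in the other 5 libraries and Axin1 at 72.8 CPM. The log2 difference in this ratio was 0.30 with all libraries and -0.01 without knockout replicate A.

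**Figure D4:**
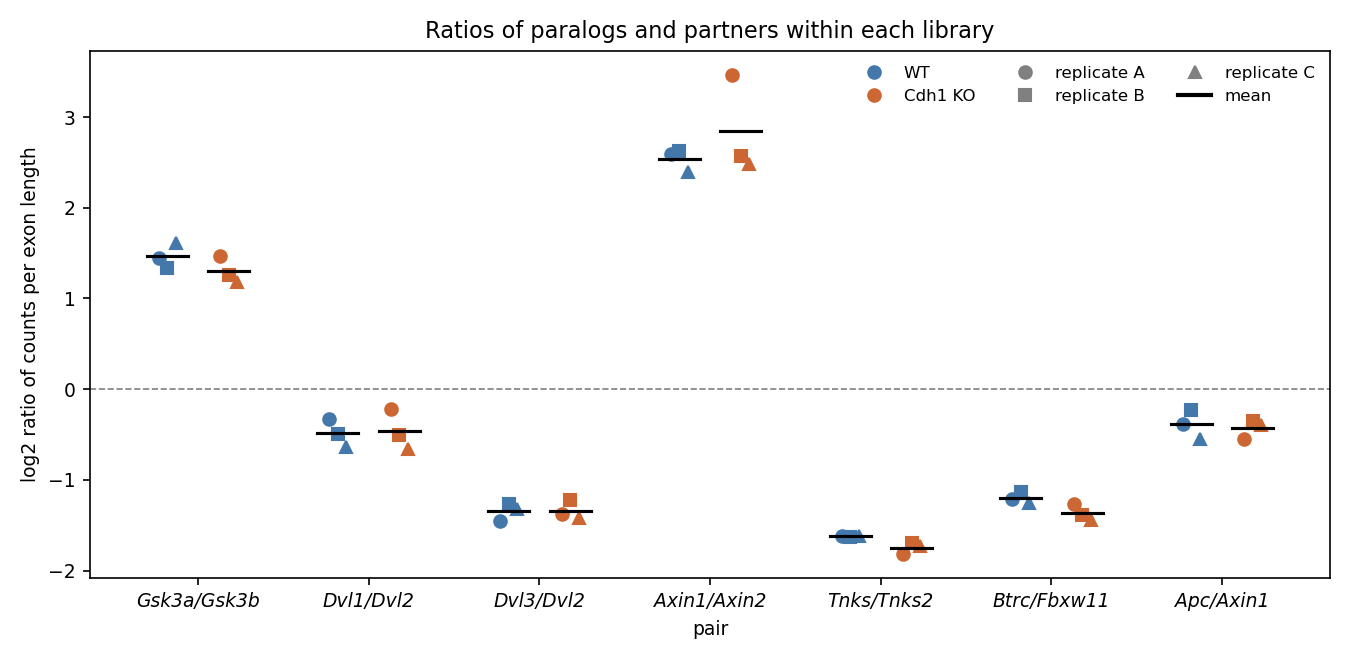
Log2 ratio of counts per exon length for 7 pairs of genes in each library, with WT in blue, knockout in orange, replicate letters as symbols and the group mean as a line. Tnks/Tnks2 and Btrc/Fbxw11 are the pairs whose genotypes do not overlap, and knockout replicate A is set apart in Axin1/Axin2.

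The genes that work beside the members were counted from lists of known pathway components. The lists were chosen with earlier results of these data known, so their counts are a description and cannot show an excess. Of 18 further genes of the destruction complex, its phosphatase and its ubiquitin ligase, 2 rose and 0 fell, with a median log2 fold change of 0.07. That share was near the 13.3% called over all tested genes. Both encode B56 regulatory subunits of the phosphatase PP2A. Ppp2r5d rose from 87.8 ± 3.85 to 114 ± 3.88 CPM (log2 fold change 0.38, edgeR adjusted p 0.00715). Ppp2r5a, on chromosome 1, rose from 125 ± 5.55 to 162 ± 21.1 CPM (log2 fold change 0.37, edgeR adjusted p 0.0217). The call of Ppp2r5a was lost without WT replicate A (adjusted p 0.115), WT replicate B (0.0732), knockout replicate B (0.0945) or knockout replicate C (0.102). Apc2, the minor paralog of Apc, had 1.45 ± 0.129 CPM in WT and 2.83 ± 0.614 CPM in knockout cells and did not pass (log2 fold change 0.96, edgeR adjusted p 0.0667). The casein kinase genes Csnk1d and Csnk1e, and Cul1, Skp1a and Rbx1 of the ubiquitin ligase, did not pass either.

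Of 6 genes of tankyrase function and Axin turnover, which include Tnks2 and the ligase gene Rnf146, 0 passed the edgeR threshold and 0 had an unadjusted p under 0.05. DESeq2 and limma-voom called 0 of them too. Of 5 genes that bind or inhibit GSK3, among them Frat1 and Frat2, 0 passed in edgeR, DESeq2 or limma-voom, and 1, Disc1, had an unadjusted edgeR p under 0.05. Over all tested genes, edgeR called 13.3%, and 26.7% had an unadjusted p under 0.05. At these shares, lists this short hold few such genes, so their counts say little.

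The next list held genes whose products bind or regulate Dishevelled. Of 15 listed partners, 4 fell and 0 rose, against 5.71% of all tested genes called lower and 7.6% called higher, and the median log2 fold change was -0.07. Ankrd6, the gene of Diversin, which brings a casein kinase to the complex, fell from 38.6 ± 1.82 to 25.4 ± 4.35 CPM (log2 fold change -0.60, edgeR adjusted p 0.0058). Dact3, which encodes a Dishevelled antagonist, fell from 35.2 ± 2.16 to 23.3 ± 3.96 CPM (log2 fold change -0.60, edgeR adjusted p 0.00726). Its relative Dact1 fell from 13.5 ± 1.71 to 8.24 ± 1.65 CPM (log2 fold change -0.72, edgeR adjusted p 0.0169). Klhl12, the adaptor of a ubiquitin ligase for Dishevelled, had a log2 fold change of -0.28 (edgeR adjusted p 0.0437) and lies on chromosome 1, where the median was -0.33.

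Ankrd6 stayed under the threshold in all 16 alternatives, the fits without 1 library included. Dact3 reached an adjusted p of 0.0513 without WT replicate A. Dact1 lost its call when WT replicate A (0.0835), WT replicate B (0.0833), knockout replicate B (0.0840) or knockout replicate C (0.0705) was left out. Klhl12 failed with no filter on low counts (0.124). It passed without knockout replicate A and failed in each of the other 5 fits without 1 library, with adjusted p values from 0.0774 without WT replicate C to 0.179 without WT replicate A. Failing fits also included those without WT replicate B (0.106), knockout replicate B (0.174) and knockout replicate C (0.134).

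**Figure D5:**
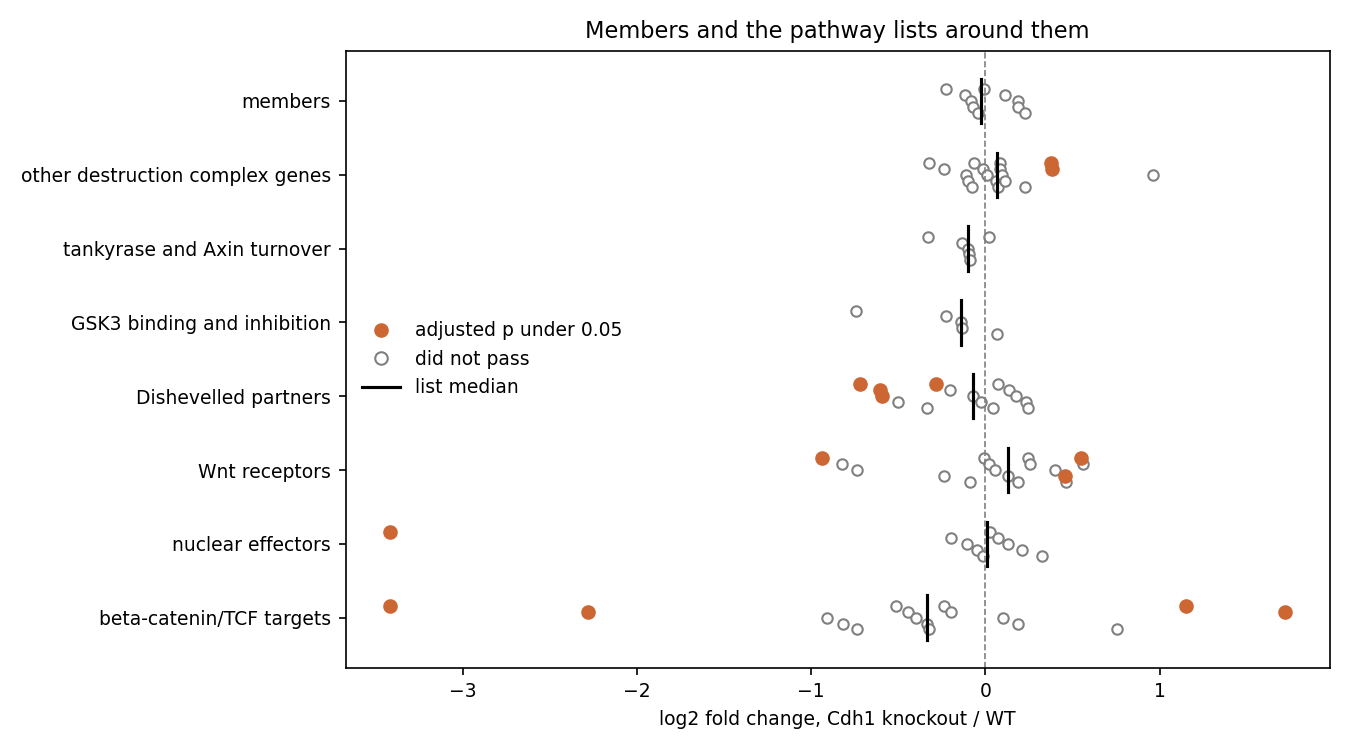
Log2 fold change (knockout over WT) of the 10 members and of the genes in 7 pathway lists, with filled points for an edgeR adjusted p under 0.05 and a line at each list's median. No member is filled, and 4 Dishevelled partners are filled on the lower side.

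Upstream of the members are the Wnt receptors. Of 17 receptor genes, 2 rose and 1 fell, against 7.6% of all tested genes called higher and 5.71% called lower, and 1 was called without chromosomes 1, 14 and Y. Fzd7 fell from 203 ± 25.1 to 106 ± 3.50 CPM (log2 fold change -0.94, edgeR adjusted p 2.1e-05), and Fzd3 rose from 44.8 ± 6.34 to 65.6 ± 6.75 CPM (log2 fold change 0.55, edgeR adjusted p 0.00578). These Frizzled genes lie on chromosomes 1 and 14, in the direction of the median of each. Fzd7 lay 0.61 below the median log2 fold change of chromosome 1, and Fzd3 lay 0.03 above that of chromosome 14. Ror2 had a log2 fold change of 0.45 (edgeR adjusted p 0.0293), and its call was lost without WT replicate A (0.131), WT replicate B (0.0962), WT replicate C (0.0522), knockout replicate B (0.132) or knockout replicate C (0.0715). Of 10 nuclear effectors 1 fell, Lef1, with a log2 fold change of -3.42 (edgeR adjusted p 2.4e-06), while Ctnnb1 had one of 0.07 (edgeR adjusted p 0.653).

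Of 19 listed targets of beta-catenin and TCF, 17 were tested, 2 rose and 2 fell, where 13.3% of all tested genes were called. Lef1 is one of the 4 and is the same gene counted among the nuclear effectors. Lef1 fell from 12.4 ± 1.71 to 1.14 ± 0.378 CPM. Sp8, low in both genotypes, fell from 3.39 ± 0.789 to 0.693 ± 0.0843 CPM (log2 fold change -2.28, edgeR adjusted p 5.99e-04). Bmp4 (log2 fold change 1.72) and Notum (from 2.90 ± 0.887 to 6.46 ± 1.63 CPM) rose. The median log2 fold change was -0.33, over targets that include T, Sp5, Cdx2 and Fgf8, with WT means of 1.17, 1.25, 2.08 and 1.07 CPM. Bmp4 lies on chromosome 14, whose median was 0.53, and 3 targets were called without chromosomes 1, 14 and Y. Notum lost its call without WT replicate B (adjusted p 0.0765), knockout replicate B (0.0802) or knockout replicate C (0.0550), and 7 targets were called without knockout replicate A. No difference between these lists and the members was tested.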

How the data were processed

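The authors deposited raw counts per gene, whole numbers with exon coordinates and length. Per the submitters' processing notes, cutadapt 2.10, STAR 2.7.5b, featureCounts 2.0.1 and GRCm38 were used, and per the labels' protocols the kit was directional. The strand setting is not given in the sources used here. Between 78.1% and 83.1% of counts from 1 to 10 were even, against 50.2% to 52.1% of those over 1000. Whether read pairs or single reads were counted is not given in the sources used here, so a printed count may not be a count of fragments. Member identifiers equal GENCODE M21 in version. Coordinates are those deposited with the counts, and those of Apc and Btrc differ from the M21 annotation used here.

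Counts were fitted with edgeR 4.0.16 in R 4.3.3 (filterByExpr with a smallest count of 10 and total of 15, TMM, quasi-likelihood test, genotype as the only term). P-values were adjusted by Benjamini-Hochberg over 17325 genes and called under 0.05. Intervals are 95%. Pair ratios used a prior count of 0.5. The procedure was tested on simulated data whose planted changes were larger than those of the members. Its power for changes as small as theirs was not tested. All 10 members are named, with Cdh1, Ctnnb1, the paralogs and up to 5 called genes of each list. Apc2, Disc1 and the uncalled list genes given by name were chosen after their values were seen. Genes most like a member were to be named only for called members. Members and lists were chosen with earlier results of these data known. Alternatives used DESeq2 1.42.0 and limma 3.58.1, among others.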

Additional observations from a re-analysis of the deposited data

How the results depend on the processing

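Over 16 alternatives, 0 of the 10 members were called in 14, and 1, Tnks, was called with upper quartile scaling (log2 fold change -0.27) and with library totals (-0.26), settings that shifted the median gene by -0.04. Differences near 0 changed sign: Gsk3a ran from -0.12 to 0.031 over the fits without 1 library, and Csnk1a1 from -0.035 to 0.039, with 0.022 when no filter was applied. The count of all called genes was 2307, 1535 without chromosomes 1, 14 and Y, and between 1374 (without WT replicate A) and 2784 (without knockout replicate A) over the fits without 1 library, with 1470 without WT replicate B.

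In the lists, Dishevelled partners had 4 called genes, and 5 without knockout replicate A. They had 3 with no filter, without chromosomes 1, 14 and Y, or without WT replicate C. They had 2 without WT replicate B, knockout replicate B or knockout replicate C, and 1 without WT replicate A. Other destruction complex genes had 2, and 1 without chromosomes 1, 14 and Y, WT replicate A, WT replicate B, knockout replicate B or knockout replicate C. Receptors had 3, 4 without knockout replicate A, and 1 without those chromosomes, which hold Fzd7 and Fzd3. Nuclear effectors had 1, and 2 with no filter. Targets had 4, 3 without those chromosomes, and 7 without knockout replicate A. A replicate block gave 2686 called genes and 0 called members. The letters A, B and C share only a name in the labels. Same-letter libraries correlated in their deviations from the group means by 0.14, -0.03 and 0.23, and 4 of 6 libraries correlated best with their own letter. Each member was counted at least 768 times in a library, where a count may not be a fragment. With counts divided by 2, 0 members were called. The shares of counting error and of spread between libraries in the intervals were not tested.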
